A study of Mus musculus with 8 samples.

Results

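The core transcription factors of haematopoietic stem cells are described here in long-term haematopoietic stem cells (LT-HSC) of mouse bone marrow. The 10 genes are Hlf, Mecom, Meis1, Gata2, Gfi1, Gfi1b, Erg, Tal1, Runx1 and Fli1, out of 29915 genes with a symbol on the array. They were listed by name as known stem cell regulators, with earlier results of these data already known, and the rule itself used no measured value. Each of the 10 had exactly 1 probe set in the deposited table, so no choice between probe sets was needed. All 10 lay above the 40th percentile of mean signal over the tested probe sets, which was 4.40 on the log2 scale.

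RNA was measured on 8 Affymetrix arrays in 4 groups of 2. The groups were CD169-DTR mice given 2 Gy of total body irradiation, CD169-DTR mice without irradiation, wild-type (WT) mice given 2 Gy, and WT mice without irradiation. CD169-DTR mice (genotype CD169DTR/+) carry 1 allele of CD169, the macrophage surface lectin encoded by Siglec1, that drives the diphtheria toxin receptor. All animals of the 4 groups, WT included, were injected with diphtheria toxin 72 h before irradiation or sham irradiation. The toxin depletes CD169+ macrophages in CD169-DTR mice, and no group without toxin was compared. LT-HSC were sorted at day 5 after irradiation as Lin- cKit+ Sca+ Flk2- CD48- CD150+ cells. The 2 arrays of a group came from distinct experiments, and whether animals were pooled, and their age and sex, are not given in the sources used here. With 2 arrays a group, the p-values rest on the spread within the 4 groups together, moderated by that of all probe sets. They measure no spread beyond these samples.

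The 10 genes encode DNA-binding proteins that keep stem cells undifferentiated and able to self-renew, and that bind together at many enhancers of blood progenitors. Gata2, Tal1, Runx1, Erg and Fli1 share many of these sites with the Tal1 partner Lmo2 and with Lyl1. Hlf, Mecom and Meis1 are known for restricting stem cell cycling and preserving self-renewal in the mouse, and their loss depletes stem cells. Gfi1 and Gfi1b are repressors that hold stem cells out of cycle and recruit the histone demethylase Kdm1a.

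Promoter sequences were taken from RefSeq on mouse assembly GRCm38.p6, as 300 bases running from 250 before to 50 after the transcription start, on the strand of the gene. The table held 16 promoters for 9 of the 10 genes. Shown are those of the 4 genes with the largest differences between groups, Hlf, Meis1, Runx1 and Gfi1b. Capitals mark matches, on either strand, to the motif letters GATAA for GATA factors, GGAAG for ETS factors, TGTGGT for RUNX factors, TGACAG for Meis1, AAATCA for Gfi1 and Gfi1b, or TTACGTAA for the PAR bZIP family of Hlf. No match overlapped another.
Hlf, chr11:90390868-90391167, minus strand: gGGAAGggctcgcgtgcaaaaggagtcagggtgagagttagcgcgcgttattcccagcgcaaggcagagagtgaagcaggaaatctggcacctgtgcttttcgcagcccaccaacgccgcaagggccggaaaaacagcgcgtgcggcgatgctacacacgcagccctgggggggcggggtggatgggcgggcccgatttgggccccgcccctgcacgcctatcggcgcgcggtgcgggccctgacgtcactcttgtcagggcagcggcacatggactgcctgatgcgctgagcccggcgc
Meis1, chr11:19018920-19019219, minus strand: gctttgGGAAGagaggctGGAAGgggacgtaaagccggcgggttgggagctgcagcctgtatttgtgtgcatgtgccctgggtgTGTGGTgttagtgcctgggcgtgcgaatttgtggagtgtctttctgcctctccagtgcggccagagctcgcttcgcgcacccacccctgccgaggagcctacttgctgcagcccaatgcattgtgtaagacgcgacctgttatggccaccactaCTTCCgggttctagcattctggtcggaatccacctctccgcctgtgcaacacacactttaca
Runx1 distal start, chr16:92826025-92826324, minus strand: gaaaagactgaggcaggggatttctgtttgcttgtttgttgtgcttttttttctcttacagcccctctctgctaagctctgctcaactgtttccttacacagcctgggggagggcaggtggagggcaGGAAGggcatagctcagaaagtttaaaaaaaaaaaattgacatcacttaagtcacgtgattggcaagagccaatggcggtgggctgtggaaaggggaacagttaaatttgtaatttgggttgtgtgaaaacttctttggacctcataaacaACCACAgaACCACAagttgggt
Runx1 proximal start, chr16:92697280-92697579, minus strand: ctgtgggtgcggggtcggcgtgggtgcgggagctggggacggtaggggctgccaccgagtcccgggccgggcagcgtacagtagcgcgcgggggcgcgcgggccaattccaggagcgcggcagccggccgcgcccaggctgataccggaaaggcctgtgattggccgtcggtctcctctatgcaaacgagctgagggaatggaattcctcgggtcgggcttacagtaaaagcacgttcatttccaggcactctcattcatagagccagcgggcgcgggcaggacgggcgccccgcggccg
Gfi1b, chr2:28621933-28622232, minus strand: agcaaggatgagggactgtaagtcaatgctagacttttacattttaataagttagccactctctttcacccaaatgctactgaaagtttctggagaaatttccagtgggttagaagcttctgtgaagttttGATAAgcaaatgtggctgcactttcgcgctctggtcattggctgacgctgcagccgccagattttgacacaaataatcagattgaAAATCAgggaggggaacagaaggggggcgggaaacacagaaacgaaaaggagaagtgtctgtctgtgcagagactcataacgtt

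Positions are counted from the transcription start and give the first base of a match. The Hlf promoter held 1 ETS match, at -249. The Meis1 promoter held ETS matches at -244, -232 and -12 and a RUNX match at -166. The distal Runx1 promoter held an ETS match at -123 and RUNX matches at 29 and 37, so this start of Runx1 carries the letters that the RUNX family binds. The proximal Runx1 promoter held no match, and its GC content was 69.0%, against 45.0% at the distal start. The Gfi1b promoter held a GATA match at -119 and a GFI match at -34, the letters bound by Gfi1 and Gfi1b themselves. Over all 32851 RefSeq promoters of this length, 71.4% held the ETS letters, 25.4% those of GATA, 19.2% those of Meis1, 16.8% those of RUNX, 14.0% those of Gfi1 and 0.119% those of Hlf. The E-box letters CANNTG, for basic helix-loop-helix factors such as Tal1, were also scanned but are not marked. They lay at -162 and 18 in Hlf, at -181 in Meis1 and at -180 and -113 in Gfi1b. In the distal Runx1 promoter they lay at -167, -136 and -71, and 72.3% of all promoters held them. A match is a description of the letters only. The array gave Runx1 1 value, so transcripts from its distal and proximal starts were not measured apart.

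The irradiation check was higher on all irradiated arrays. Cdkn1a, the p53 target that arrests the cell cycle, read 13.24 and 13.23 in irradiated and 9.79 and 9.34 in non-irradiated CD169-DTR cells, and 13.06 and 13.41 in irradiated and 7.86 and 8.39 in non-irradiated WT cells (log2). It passed the test in WT (34.5-fold higher, limma adjusted p = 0.0073) and averaged over genotypes (adjusted p = 0.00205), and missed it in CD169-DTR (12.7-fold higher, adjusted p = 0.0622). Siglec1 itself was dim in these sorted cells, with values from 3.86 to 4.12, below the 40th percentile. Of 15 measured LT-HSC markers (16 listed), none was below that percentile. Array medians lay between 4.86 and 5.03, and replicates of a group correlated at r = 0.991 to 0.994 over probe sets. The highest r of an array with an array of another group was 0.990 to 0.994, so replicates were about as alike as arrays of different groups. Irradiated arrays stood apart on the first 2 principal components (21.7% and 19.7% of variance), namely replicate 2 of CD169-DTR 2 Gy and replicate 1 of WT 2 Gy. Differences without these arrays are given below for some of the genes.

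Markers of other blood cells varied between arrays as well. The mean of the 16 neutrophil markers, relative to its mean over the 8 arrays, was 0.14 and -0.30 in irradiated and -0.18 and 0.54 in non-irradiated CD169-DTR cells, and 0.31 and 0.84 in irradiated and -1.07 and -0.28 in non-irradiated WT cells (log2). The mean of 13 megakaryocyte markers (16 listed) was 0.36 and -0.18 in irradiated and -0.45 and -0.22 in non-irradiated CD169-DTR cells, and 0.98 and -0.15 in irradiated and -0.19 and -0.14 in non-irradiated WT cells. That of 11 erythroid markers (14 listed) was -0.22 and -0.87 in irradiated and -0.31 and 1.07 in non-irradiated CD169-DTR cells, and -0.42 and 0.10 in irradiated and 0.49 and 0.17 in non-irradiated WT cells. That of 10 mast cell and basophil markers (11 listed) was 0.74 and 0.38 in irradiated and -0.80 and -0.60 in non-irradiated CD169-DTR cells, and -0.13 and 0.40 in irradiated and 0.35 and -0.34 in non-irradiated WT cells. In this list Prg2 varied most, with 3.39 and 12.93 in non-irradiated CD169-DTR and 10.59 and 5.23 in non-irradiated WT cells. Mcpt8 read 8.88 and 5.53 in non-irradiated CD169-DTR cells, so the 2 similar list means there came from different genes. The erythroid list was highest on 1 CD169-DTR array without irradiation and the megakaryocyte list on WT 2 Gy replicate 1. Among these 4 lists, Gp6, Hdc, Cma1 and Tpsb2 lay below the 40th percentile. In bulk RNA of sorted cells, fewer cells of a type and less RNA per cell cannot be told apart.

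**Figure D1:**
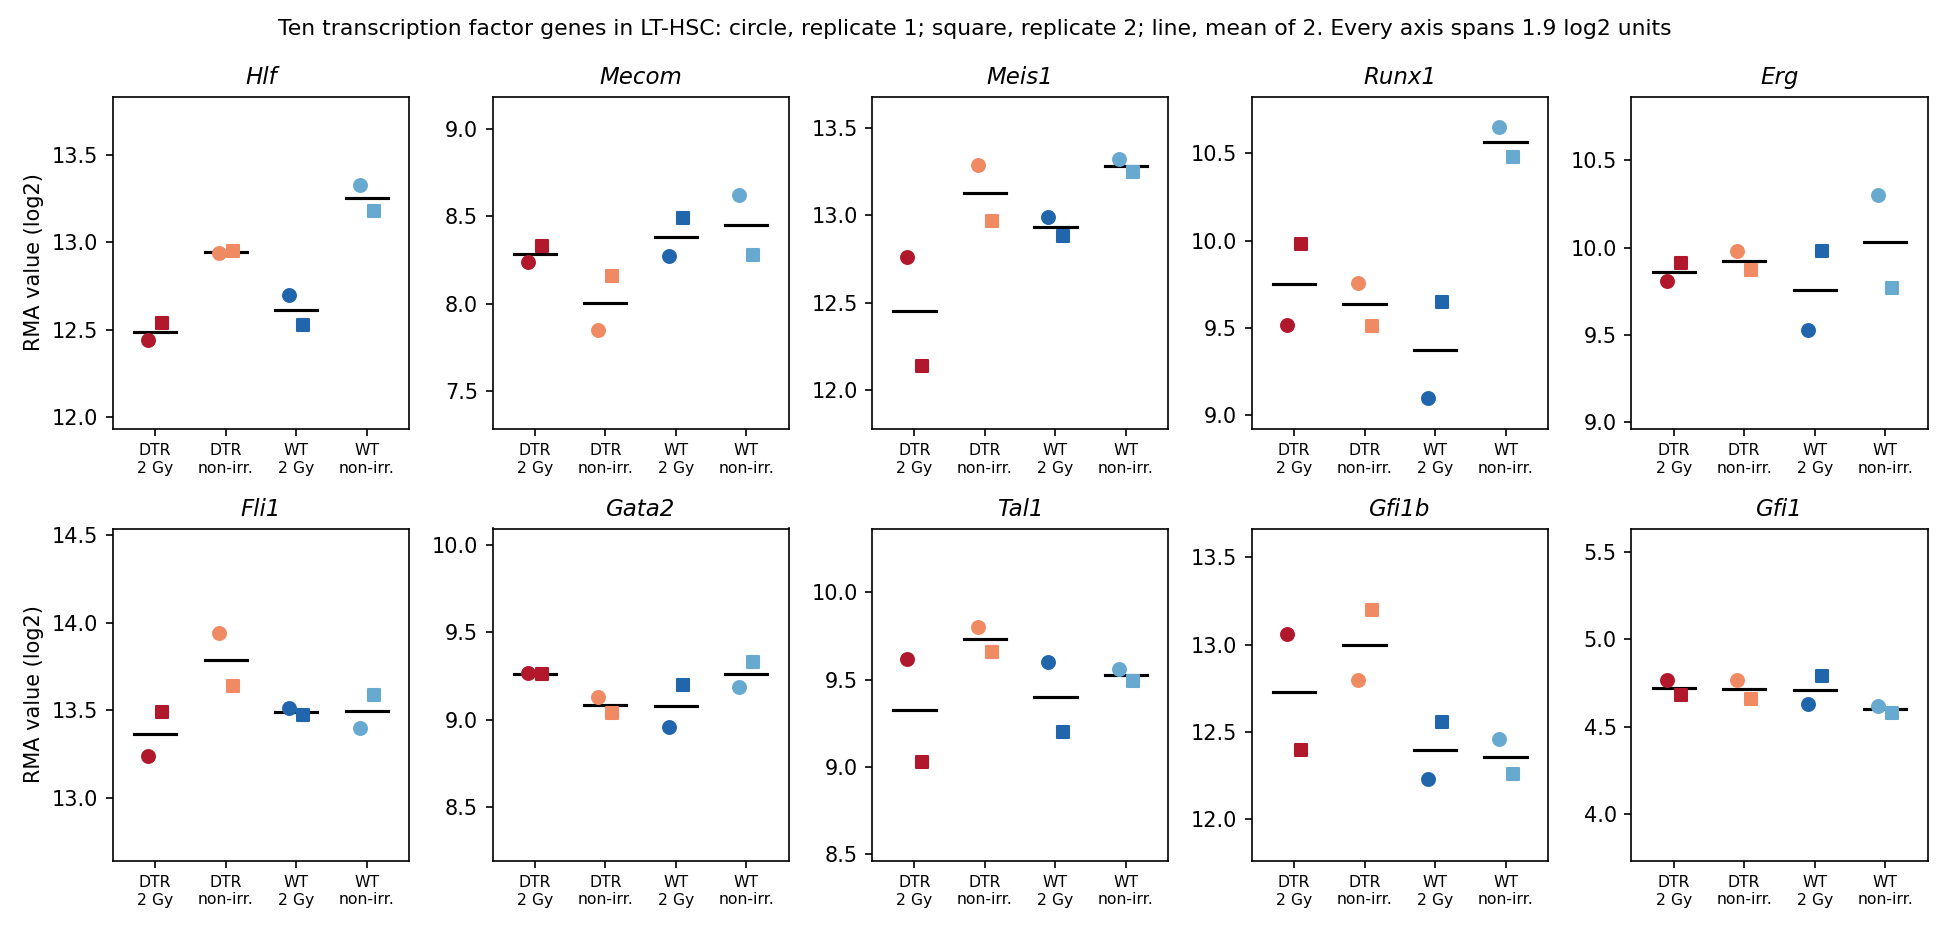
Log2 RMA value of each of the 10 transcription factor genes on each array, 1 panel per gene, with the 4 groups along the x axis; points are arrays and short lines are group means of 2. Hlf on the irradiated arrays (12.44 to 12.70) lies below all non-irradiated arrays (12.94 to 13.33), and Runx1 is highest on the non-irradiated WT arrays (10.65 and 10.48).

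Hlf, a PAR bZIP factor that marks the most primitive stem cells, was the only one of the 10 genes whose irradiated and non-irradiated arrays did not overlap over both genotypes. Its log2 values were 12.44 and 12.54 in irradiated and 12.94 and 12.95 in non-irradiated CD169-DTR cells. They were 12.70 and 12.53 in irradiated and 13.33 and 13.18 in non-irradiated WT cells. All 4 irradiated arrays were thus lower than all 4 non-irradiated ones, whereas over all tested probe sets groups did not overlap in this way for 5.5%, or 1.74% in the lower direction. Hlf averaged 12.49 ± 0.07 in irradiated and 12.94 ± 0.01 in non-irradiated CD169-DTR cells, and 12.62 ± 0.12 in irradiated and 13.26 ± 0.11 in non-irradiated WT cells (SD, n = 2 each). Averaged over genotypes the difference was -0.55 (SE 0.09, 95% confidence interval -0.76 to -0.34), a level 1.46-fold lower, with a limma adjusted p of 0.235. Of the 30294 probe sets tested, 69 (0.228%) had an unadjusted p at least as small. Hlf therefore did not pass the test over all probe sets, although its difference exceeded the pooled within-group SD of 0.088.

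Within genotypes, the Hlf difference after 2 Gy was -0.46 in CD169-DTR (SE 0.12, 95% interval -0.75 to -0.16, adjusted p = 0.618) and -0.64 in WT (SE 0.12, 95% interval -0.94 to -0.34, adjusted p = 0.387). The interaction, the irradiation difference in CD169-DTR minus that in WT, was 0.19 (95% interval -0.23 to 0.60, adjusted p = 0.962). Irradiated cells were thus 1.37-fold lower in CD169-DTR and 1.56-fold lower in WT, and no difference between the genotypes in this response was detectable. When any single array was left out, the averaged difference stayed between -0.59 and -0.51, and without both arrays that stood apart it was -0.62 (adjusted p = 0.498).

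Meis1, a homeodomain partner of Hox and Pbx proteins, had the largest irradiation difference of the 10 genes in CD169-DTR cells. It read 12.76 and 12.14 in irradiated and 13.29 and 12.97 in non-irradiated CD169-DTR cells. In WT it read 12.99 and 12.88 in irradiated and 13.32 and 13.25 in non-irradiated cells. Irradiated arrays were below non-irradiated ones within each genotype, and the lowest value came from CD169-DTR 2 Gy replicate 2. The difference was -0.68 in CD169-DTR (SE 0.22, 95% interval -1.21 to -0.15, adjusted p = 0.628) and -0.35 in WT (95% interval -0.88 to 0.18, adjusted p = 0.701). The CD169-DTR value was 1.60-fold lower with all arrays, and without CD169-DTR 2 Gy replicate 2 the difference was -0.37 (adjusted p = 0.92). Averaged over genotypes it was -0.52 (adjusted p = 0.449), and between -0.67 and -0.36 with each array left out. The interaction was -0.33 (95% interval -1.08 to 0.42, adjusted p = 0.962).

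Mecom, the zinc finger and SET domain gene needed for stem cell self-renewal, read 8.24 and 8.33 in irradiated and 7.85 and 8.16 in non-irradiated CD169-DTR cells, and 8.27 and 8.49 in irradiated and 8.62 and 8.28 in non-irradiated WT cells. The lowest pair was that of non-irradiated CD169-DTR cells. The irradiation difference was 0.28 in CD169-DTR (95% interval -0.14 to 0.70, adjusted p = 0.859) and -0.07 in WT (95% interval -0.49 to 0.35, adjusted p = 0.911). Without both arrays that stood apart, the WT difference was 0.04. Both intervals include zero, so no difference of Mecom after 2 Gy was detectable with these arrays.

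Runx1, the runt-domain factor required for definitive blood stem cells to emerge, was high in non-irradiated WT cells and lower in the other 3 groups. It read 9.52 and 9.98 in irradiated and 9.76 and 9.51 in non-irradiated CD169-DTR cells. In WT it read 9.10 and 9.65 in irradiated and 10.65 and 10.48 in non-irradiated cells. Both non-irradiated WT arrays lay above all 6 others, whose highest value was 9.98. Runx1 averaged 9.75 ± 0.33 in irradiated and 9.64 ± 0.18 in non-irradiated CD169-DTR cells, and 9.38 ± 0.39 in irradiated and 10.57 ± 0.12 in non-irradiated WT cells (SD, n = 2 each).

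After 2 Gy, Runx1 in WT differed by -1.19 (SE 0.24, 95% interval -1.76 to -0.62), a level 2.28-fold lower (adjusted p = 0.395), and 136 probe sets (0.449%) had an unadjusted p at least as small. In CD169-DTR the irradiation difference was 0.12 (95% interval -0.45 to 0.68, adjusted p = 0.97), and -0.12 without both arrays that stood apart. The interaction was 1.31 (SE 0.34, 95% interval 0.50 to 2.11, adjusted p = 0.874), and 232 probe sets (0.766%) had an unadjusted p at least as small, so the difference between the responses did not pass over all probe sets. Of the 10 interactions, that of Runx1 alone had an unadjusted p under 0.05, where 5.17% of all probe sets had one. Without irradiation, CD169-DTR cells differed from WT by -0.93 (SE 0.24, 95% interval -1.50 to -0.36, 1.91-fold lower, adjusted p = 0.979). These 3 comparisons share the non-irradiated WT arrays and are not separate evidence. When any single array was left out, the interaction lay between 1.03 and 1.58, and without both arrays that stood apart it was 0.80 (adjusted p = 0.907), which is less by more than 1.5 times. The neutrophil marker mean was -1.07, its lowest value, on the first non-irradiated WT array and -0.28 on the second, and its part in the Runx1 difference was not tested.

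Erg and Fli1 are ETS factors, and both are needed for stem cell maintenance and the megakaryocyte lineage. Erg read 9.81 and 9.91 in irradiated and 9.98 and 9.87 in non-irradiated CD169-DTR cells, and 9.53 and 9.98 in irradiated and 10.30 and 9.77 in non-irradiated WT cells. The irradiation differences of Erg were -0.07 in CD169-DTR (95% interval -0.60 to 0.47, adjusted p = 0.979) and -0.28 in WT (95% interval -0.81 to 0.25, adjusted p = 0.734), and all groups compared overlapped. The Erg difference in WT was -0.06 without both arrays that stood apart. Fli1 read 13.24 and 13.49 in irradiated and 13.94 and 13.64 in non-irradiated CD169-DTR cells, and 13.51 and 13.47 in irradiated and 13.40 and 13.59 in non-irradiated WT cells. Its highest value was that of CD169-DTR non-irradiated replicate 1, and the WT groups overlapped.

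The irradiation difference of Fli1 was -0.43 in CD169-DTR (SE 0.16, 95% interval -0.80 to -0.05, adjusted p = 0.681), 1.34-fold lower. In WT it was -0.01 (95% interval -0.38 to 0.37, adjusted p = 0.993), and the interaction was -0.42 (95% interval -0.96 to 0.12, adjusted p = 0.957). Without CD169-DTR non-irradiated replicate 1 the CD169-DTR difference was -0.28 (adjusted p = 0.853).

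Gata2, a zinc finger factor for stem and mast cells, and Tal1, the basic helix-loop-helix factor that pairs with E proteins, act together in stem cells. Gata2 read 9.27 and 9.26 in irradiated and 9.13 and 9.04 in non-irradiated CD169-DTR cells, and 8.96 and 9.20 in irradiated and 9.19 and 9.33 in non-irradiated WT cells. Its irradiation differences were 0.18 in CD169-DTR (adjusted p = 0.888) and -0.18 in WT (adjusted p = 0.724), the interaction was 0.36 (95% interval -0.08 to 0.80, adjusted p = 0.957), and the average over genotypes was 0 with a 95% interval of -0.22 to 0.22. Tal1 read 9.62 and 9.03 in irradiated and 9.80 and 9.66 in non-irradiated CD169-DTR cells, and 9.60 and 9.20 in irradiated and 9.56 and 9.49 in non-irradiated WT cells. The replicate 2 arrays of both irradiated groups were the lowest for Tal1. The irradiation differences of Tal1 were -0.41 in CD169-DTR (95% interval -0.95 to 0.14, adjusted p = 0.828) and -0.13 in WT (95% interval -0.67 to 0.42, adjusted p = 0.872). In CD169-DTR its groups did not overlap, but the Tal1 difference was -0.11 without the second irradiated array (adjusted p = 0.999) and -0.70 without the first (adjusted p = 0.351). Without both arrays that stood apart, the WT difference was -0.33 for Tal1 and -0.06 for Gata2.

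Gfi1 and Gfi1b are zinc finger repressors with closely similar DNA-binding fingers, and Gfi1 is a p53 target in mouse stem cells. Gfi1 was dim and flat, with all 8 arrays between 4.58 and 4.79. It read 4.77 and 4.68 in irradiated and 4.77 and 4.66 in non-irradiated CD169-DTR cells, and 4.63 and 4.79 in irradiated and 4.62 and 4.58 in non-irradiated WT cells. Its irradiation difference was 0.01 in CD169-DTR (95% interval -0.28 to 0.30, adjusted p = 0.992) and 0.11 in WT (95% interval -0.18 to 0.40, adjusted p = 0.789). Its mean over the arrays, 4.69, was close to the 40th percentile of 4.40. After cyclic loess between arrays the Gfi1 differences were -0.02 in CD169-DTR and -0.0046 in WT.

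Gfi1b, required in the erythroid and megakaryocyte lineages, was the one member whose level was higher in CD169-DTR than in WT cells with an unadjusted p under 0.05. It read 13.06 and 12.40 in irradiated and 12.80 and 13.20 in non-irradiated CD169-DTR cells, and 12.23 and 12.56 in irradiated and 12.46 and 12.26 in non-irradiated WT cells. The non-irradiated genotypes did not overlap, while CD169-DTR 2 Gy replicate 2 fell within the WT range. Without irradiation the genotype difference was 0.64 (SE 0.26, 95% interval 0.02 to 1.26, 1.56-fold higher, adjusted p = 0.999), and without CD169-DTR non-irradiated replicate 2 it was 0.44 (adjusted p = 0.915). The erythroid marker mean was highest on that same array (1.07, against -0.31 on the other), and its part in the Gfi1b value was not tested. Averaged over doses, Gfi1b differed by 0.49 (95% interval 0.05 to 0.93, adjusted p = 0.784), and without CD169-DTR 2 Gy replicate 1 by 0.32 (adjusted p = 0.634). The irradiation differences were -0.27 in CD169-DTR (95% interval -0.89 to 0.35, adjusted p = 0.925) and 0.04 in WT (95% interval -0.59 to 0.66, adjusted p = 0.973). Without both arrays that stood apart they were 0.06 in CD169-DTR and 0.20 in WT.

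**Figure D2:**
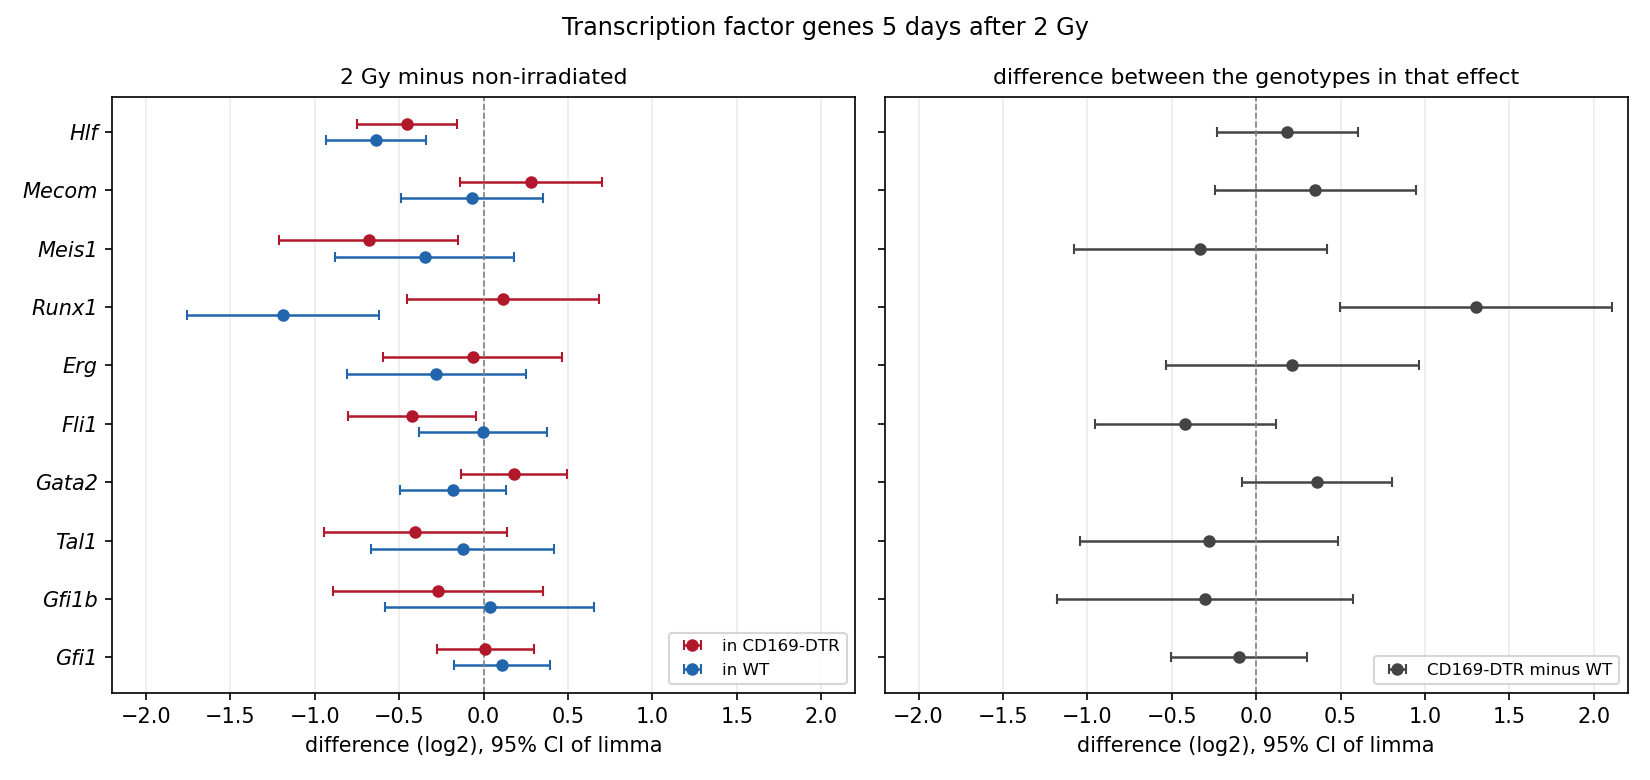
Log2 difference after 2 Gy for each of the 10 genes, in CD169-DTR and in WT, and in a second panel the interaction, with 95% confidence intervals of the limma fit. Intervals lie below zero for Hlf (-0.46), Meis1 (-0.68) and Fli1 (-0.43) in CD169-DTR and for Hlf (-0.64) and Runx1 (-1.19) in WT, before adjustment over all probe sets.

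Over the 10 genes, none passed the limma test at an adjusted p under 0.05 after 2 Gy in CD169-DTR, where 0% of all probe sets did, nor in WT or averaged over genotypes, where 0.0099% did in each. At an unadjusted p under 0.05 there were 3 of 10 genes in CD169-DTR (Hlf, Meis1 and Fli1), against 6.77% of all probe sets. There were 2 of 10 in WT (Hlf and Runx1), against 7.81%, and 3 of 10 averaged over genotypes (Hlf, Meis1 and Runx1), against 9.23%. All of these were lower after irradiation, a direction with shares of 3.53% in CD169-DTR, 3.21% in WT and 3.98% averaged over all probe sets. Irradiated and non-irradiated arrays did not overlap for 6 of 10 genes in CD169-DTR (31.2% of all probe sets) and 4 of 10 in WT (44.7%). In CD169-DTR 4 of these were lower and 2 higher (Mecom and Gata2), and in WT 3 were lower and 1 higher (Gfi1). Differences were below 0 for 6 of 10 in CD169-DTR (42.4%) and 8 of 10 in WT (35%). The median difference of the 10 genes was -0.17 in CD169-DTR and -0.15 in WT. Medians over all tested probe sets were 0.04 in CD169-DTR and 0.08 in WT. The LT-HSC markers, 15 measured, had medians of -0.23 in CD169-DTR and -0.20 in WT. At an unadjusted p under 0.05 (limma), 4 of 15 were lower and 1 higher in CD169-DTR, and 4 lower and 0 higher in WT. With so few genes these counts and medians describe the listed genes and carry no test of their own.

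Between genotypes, again no gene passed and 0% of all probe sets did, with or without irradiation. In irradiated cells 0 of 10 genes had an unadjusted p under 0.05 (limma), against 7.57% of all probe sets. The difference of largest size there was that of Meis1, -0.49 (95% interval -1.01 to 0.04, adjusted p = 0.687). The second CD169-DTR 2 Gy array decided much of this, since the Meis1 difference was -0.18 without it. In non-irradiated cells 4 of 10 had one, against 4.38%. These were Runx1 and Gfi1b, given above, Mecom with -0.45 (95% interval -0.87 to -0.02, adjusted p = 0.999) and Hlf with -0.31 (95% interval -0.61 to -0.01, adjusted p = 0.999). Of the 4, Hlf, Mecom and Runx1, were lower in CD169-DTR cells. Groups did not overlap for 8 of 10 genes without irradiation (31% of all probe sets), 4 of them lower and 4 higher, and for 2 of 10 after irradiation (34.9%).

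The Hlf, Mecom and Gfi1b differences between non-irradiated genotypes had no unadjusted p under 0.05 (limma) in most fits that left out 1 array. In these fits Hlf ran from -0.385 to -0.235, Mecom from -0.615 to -0.275 and Gfi1b from 0.44 to 0.84. Without WT non-irradiated replicate 1 Mecom differed by -0.28 (adjusted p = 1) and Hlf by -0.24 (adjusted p = 1) (limma). Without CD169-DTR non-irradiated replicate 1 Mecom differed by -0.29 (adjusted p = 0.999). Runx1 lay between -1.06 and -0.81 with any array left out. Averaged over both doses, 2 of 10 genes had an unadjusted p under 0.05 (6.33% of all probe sets), Gfi1b as above and Hlf with -0.22 (95% interval -0.43 to -0.01, adjusted p = 0.787). The averaged Hlf difference was -0.20 without both arrays that stood apart. Averaged over doses, Hlf and Gfi1b also had no unadjusted p under 0.05 (limma) in most fits that left out 1 array.

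**Figure D3:**
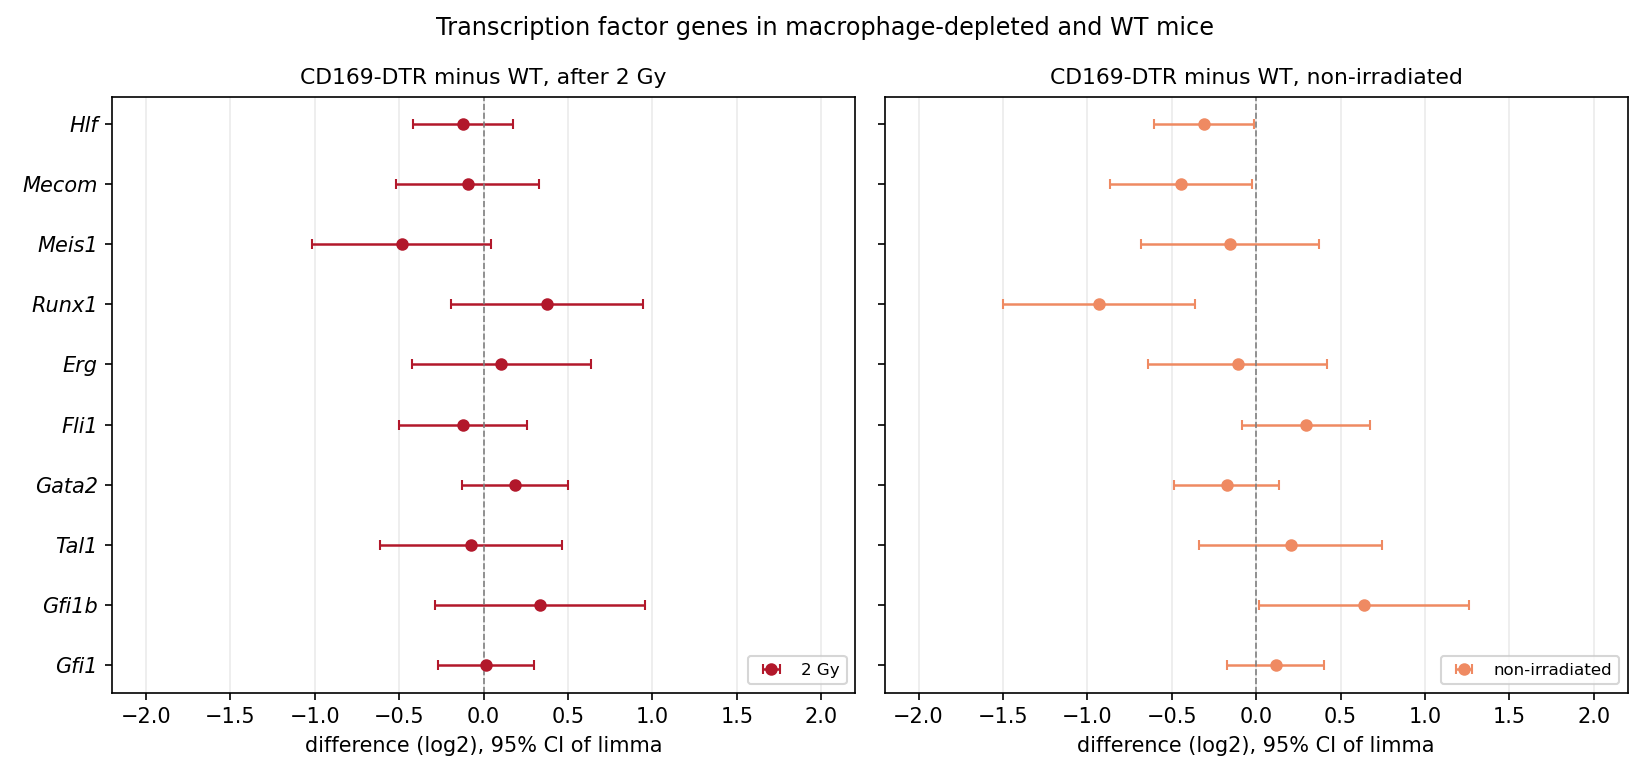
Log2 difference between CD169-DTR and WT for each of the 10 genes, after 2 Gy and without irradiation, with 95% confidence intervals of the limma fit. Without irradiation Runx1 (-0.93), Mecom (-0.45) and Hlf (-0.31) lie below zero and Gfi1b (0.64) above it, and after 2 Gy all 10 intervals include zero.

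Across the 8 arrays the 10 genes did not move as a block. Of 45 pairs, 24 had a positive Pearson r, and the median r was 0.06. The highest were Hlf with Meis1 (0.745) and Meis1 with Tal1 (0.737), followed by Hlf with Runx1 (0.691) and Erg with Runx1 (0.670). The lowest was Mecom with Fli1 (-0.728). Gfi1 and Gfi1b had an r of 0.508. The arrays share irradiation, genotype and array-wide shifts, so these values describe 8 points and carry no test.

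**Figure D4:**
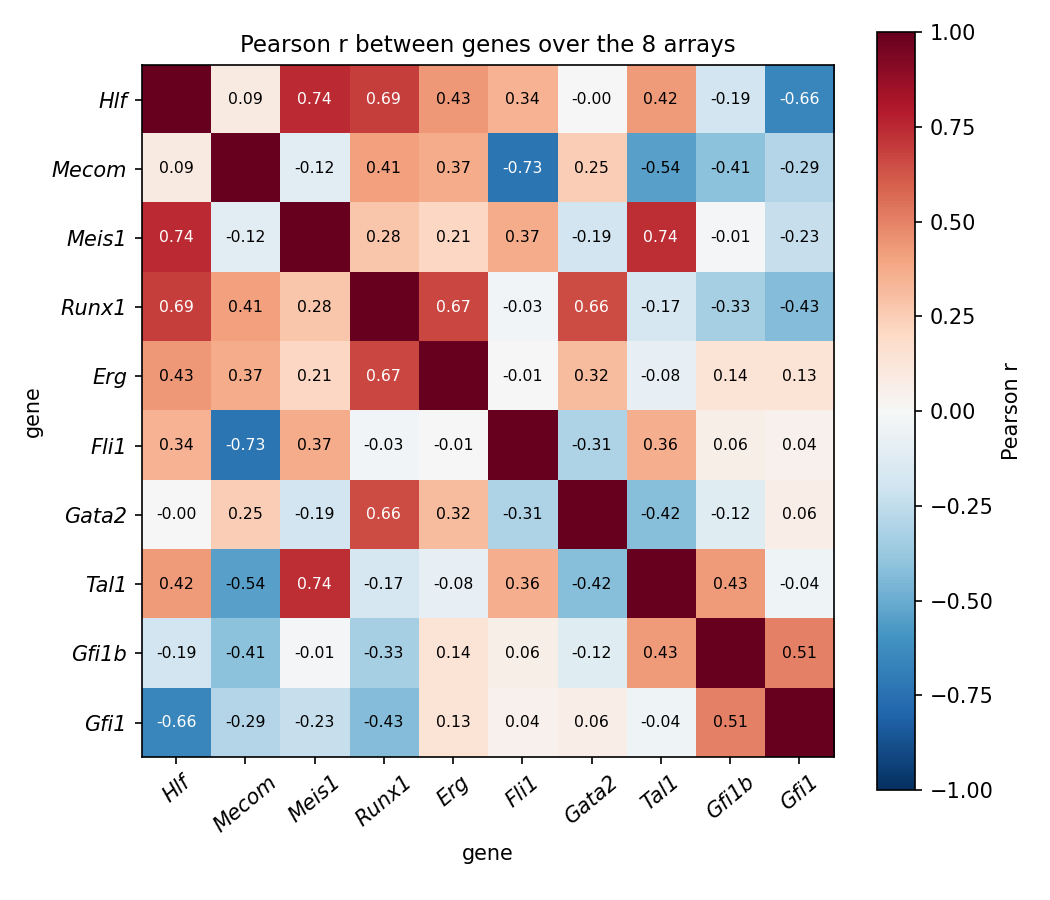
Pearson r between each pair of the 10 genes over the 8 arrays, as a colour from -1 to 1. Only the pairs Hlf and Meis1 (0.745) and Meis1 and Tal1 (0.737) reach 0.7, and Mecom and Fli1 (-0.728) is the 1 pair at or below -0.7.

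Among 17953 genes above the 40th percentile, the gene whose pattern over the 8 arrays was most like that of Hlf was Kit (r = 0.973), the stem cell factor receptor used in the sorting gate, then Gtf2i (r = 0.963). Kit read 14.25 and 14.25 in irradiated and 14.77 and 14.66 in non-irradiated CD169-DTR cells, and 14.36 and 14.33 in irradiated and 14.93 and 14.89 in non-irradiated WT cells. All irradiated arrays were lower, and the difference averaged over genotypes was -0.52 (95% interval -0.70 to -0.33, adjusted p = 0.209). The gene most like Runx1 was Lmo2 (r = 0.947), the LIM protein that bridges Tal1 and Gata2, then Dynll2 (r = 0.934). For Gfi1b these were Srsf1 and Pmm1 (r = 0.958 each), for Erg Il18r1 (r = 0.965) and Rnf144a (r = 0.959), and for Fli1 Mtif3 (r = 0.976) and Zfp780b (r = 0.951). For Meis1 they were the predicted gene Gm22009 (r = 0.984) and Txnip (r = 0.972), and Gata2 was most like Tnfrsf21 (r = 0.978). Mecom, Tal1 and Gfi1 were most like Mir691 (r = 0.973), Gm13396 (r = 0.989) and 4930598F16Rik (r = 0.960). With 8 arrays, 13 to 153 of the 17953 genes reached an r of 0.9 with a given member.

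Of 18 binding partners and cofactors 16 were measured, and none passed in any comparison (limma). At an unadjusted p under 0.05 after 2 Gy, 1 was higher and 1 lower in CD169-DTR (6.77% of all probe sets, either direction). In WT 0 were higher and 3 lower (7.81%). The median difference of the partners was 0.03 in CD169-DTR and -0.12 in WT. Lmo2 had the same shape as Runx1. It read 10.26 and 10.39 in irradiated and 10.29 and 10.29 in non-irradiated CD169-DTR cells, and 10.22 and 10.27 in irradiated and 10.69 and 10.71 in non-irradiated WT cells. Only the non-irradiated WT arrays stood above the rest. Lmo2 differed after 2 Gy by 0.04 in CD169-DTR (adjusted p = 0.977) and by -0.46 in WT (SE 0.11, adjusted p = 0.489), and its interaction was 0.49 (95% interval 0.12 to 0.86, adjusted p = 0.913). Tcf12, an E protein that dimerises with Tal1, differed by 0.02 in CD169-DTR and by -0.40 in WT (adjusted p = 0.573). Zfpm1, the GATA cofactor, differed by -0.42 in CD169-DTR (adjusted p = 0.642) and by -0.21 in WT. Kdm1a, the demethylase recruited by Gfi1 and Gfi1b, differed by 0.38 averaged over genotypes (adjusted p = 0.539), and Hdac1 by 0.56 in CD169-DTR (adjusted p = 0.723).

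Of 12 listed paralogues, 10 were measured, and 0 had an unadjusted p under 0.05 after 2 Gy in either genotype or between the non-irradiated genotypes (limma, 0 passed), with differences after 2 Gy from -0.47 to 0.23 in CD169-DTR and from -0.19 to 0.19 in WT. Of 20 other stem and lineage transcription factors 16 were measured, and none passed. After 2 Gy at an unadjusted p under 0.05, 0 were higher and 2 lower in CD169-DTR (6.77% of all probe sets, either direction). In WT 1 was higher and 1 lower (7.81%). The 2 in CD169-DTR were Cebpa, the master factor of granulocytes, at -1.41 (SE 0.28, adjusted p = 0.516), and Myb, a factor of progenitor proliferation, at -0.66 (adjusted p = 0.615). Cebpa read 6.80 and 6.26 in irradiated and 7.81 and 8.06 in non-irradiated CD169-DTR cells, and 7.01 and 7.68 in irradiated and 7.53 and 7.19 in non-irradiated WT cells. The irradiated CD169-DTR pair was the lowest, and the Cebpa interaction was -1.39 (95% interval -2.35 to -0.43, adjusted p = 0.886). In WT, Zbtb16 differed by 0.72 (adjusted p = 0.552) and Etv6 by -0.35 (adjusted p = 0.567).

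**Figure D5:**
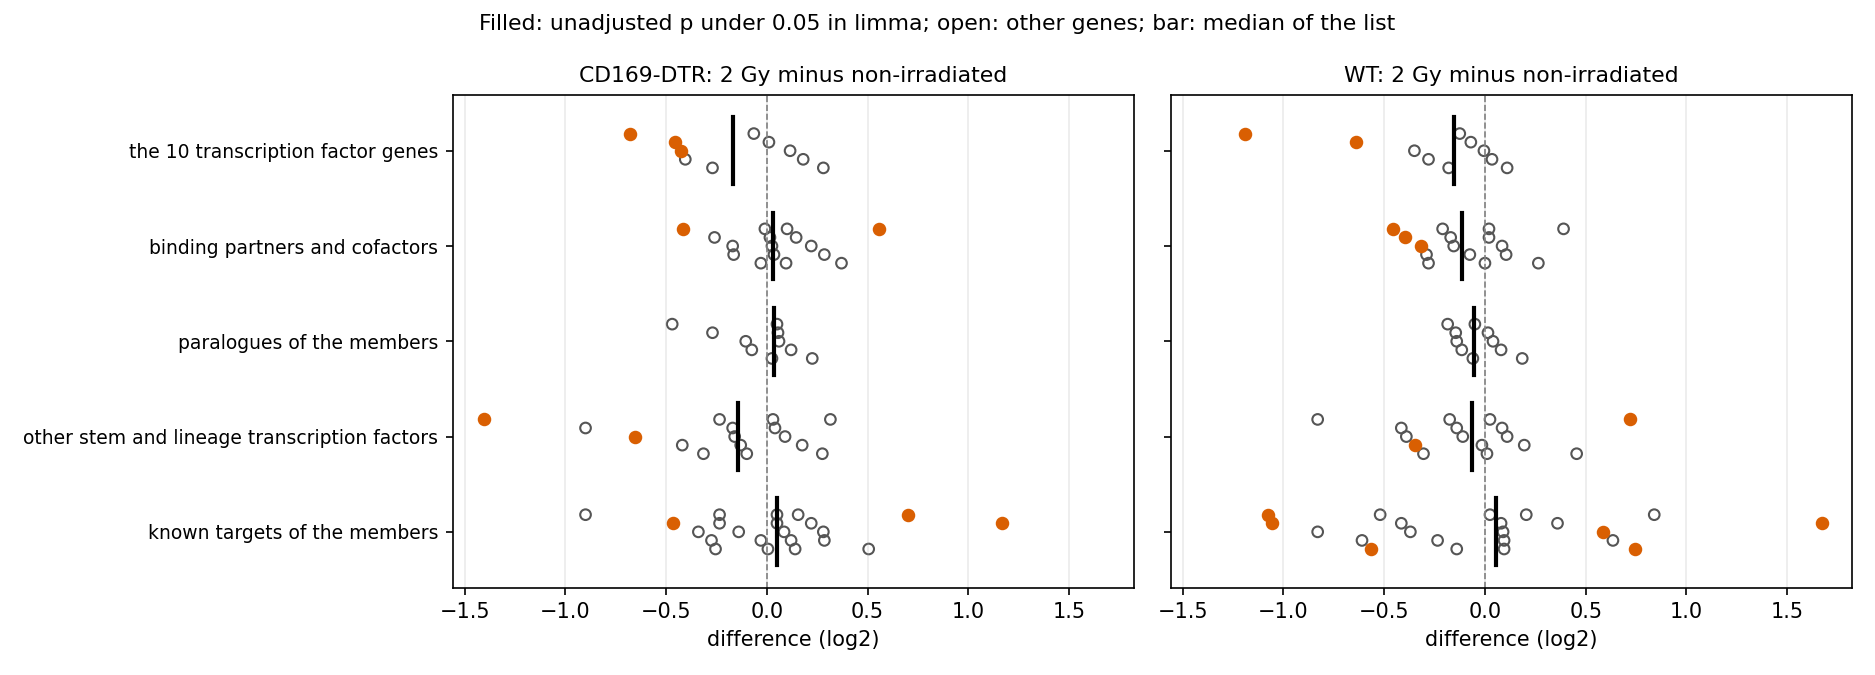
Log2 difference after 2 Gy for every measured gene of the 10 members, their binding partners, paralogues, other transcription factors and known targets, in CD169-DTR and in WT; points are genes, filled where the unadjusted limma p is under 0.05, and lines are list medians. The member medians are -0.17 in CD169-DTR and -0.15 in WT, and those of the targets 0.05 in each.

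Of 25 known targets 22 were measured and none passed (limma). At an unadjusted p under 0.05 after 2 Gy, 2 were higher and 1 lower in CD169-DTR (6.77% of all probe sets, either direction). In WT 3 were higher and 3 lower (7.81%). Robo4, a guidance receptor of stem and endothelial cells, read 7.83 and 7.96 in irradiated and 8.23 and 8.24 in non-irradiated CD169-DTR cells, and 7.24 and 7.67 in irradiated and 8.53 and 8.49 in non-irradiated WT cells. Irradiated Robo4 values were the lower in both genotypes, with differences of -0.34 in CD169-DTR (adjusted p = 0.789) and -1.06 in WT (SE 0.16, adjusted p = 0.301). Eng, a TGF-beta co-receptor, differed by -0.26 in CD169-DTR (adjusted p = 0.928) and by -1.08 in WT (adjusted p = 0.48). Pf4, a platelet chemokine, was the target with a difference above 0 and p under 0.05 in both, 0.70 in CD169-DTR (adjusted p = 0.622) and 0.59 in WT (adjusted p = 0.598). Cpa3, a mast cell protease, differed by 1.17 in CD169-DTR (adjusted p = 0.617) and by -0.42 in WT (adjusted p = 0.727). The targets with an unadjusted p under 0.05 (limma) in WT were Kit, Pf4, Gp9, Robo4, Eng and Mpo. Of these, Kit and Robo4 are also LT-HSC markers, Pf4 and Gp9 megakaryocyte markers and Mpo a neutrophil marker. Cpa3 is also a mast cell marker. The target counts and the marker counts are therefore not separate. Over all probe sets an unadjusted p under 0.05 was found for 6.77% in CD169-DTR and 7.81% in WT, in either direction. At this p megakaryocyte markers had 1 of 13 higher in CD169-DTR and 4 of 13 in WT. Mast cell markers had 4 of 10 higher in CD169-DTR and 0 of 10 in WT. Neutrophil markers had 0 of 16 higher in CD169-DTR and 8 of 16 in WT, where 1 of 16, Retnlg, was lower. The part of such cells in these differences was not tested.

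The list of p53 targets and genes tied to Gfi1 was measured in full, 10 of 10. Averaged over genotypes, Cdkn1a and Phlda3 passed the limma test, Phlda3 with a difference of 1.31 (SE 0.08, adjusted p = 0.0244). Within genotypes only Cdkn1a passed, and only in WT. Both genes were higher after 2 Gy in each genotype, Cdkn1a by 3.67 in CD169-DTR and 5.11 in WT, and Phlda3 by 1.29 in CD169-DTR and 1.33 in WT. Phlda3, an inhibitor of Akt signalling, read 8.35 and 8.46 in irradiated and 7.08 and 7.15 in non-irradiated CD169-DTR cells, and 8.61 and 8.66 in irradiated and 7.37 and 7.24 in non-irradiated WT cells. Its 4 irradiated arrays were all above its 4 non-irradiated ones. The p53 target Ccng1 differed by 0.69 in CD169-DTR (adjusted p = 0.516) and by 0.76 in WT (adjusted p = 0.37), while Mdm2 differed by 0.08 in CD169-DTR and 0.26 in WT (adjusted p = 0.974 in CD169-DTR and 0.754 in WT). Ndn, a p53 target tied to stem cell quiescence, differed by -0.39 averaged over genotypes (adjusted p = 0.539). Gfi1, which p53 activates in irradiated mouse stem cells, stayed within 0.21 log2 over all 8 arrays. On the same arrays Cdkn1a spanned from 7.86 to 13.41. Gfi1 was dim, however, with a mean of 4.69 that lay below the lowest array median, 4.86. A flat signal this dim cannot show whether Gfi1 responded to irradiation.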

How the data were processed

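Each array has a single deposited value for every probe set, made by the authors with RMA per the submitters' processing notes, whose version, genome build and annotation are not given in the sources used here. Per the labels' protocols, RNA of integrity score 7.0 or more was labelled with the GeneChip WT Pico kit. The deposited values were taken as log2, the convention of RMA, although the table does not state the base. RMA brings arrays close to a common distribution, so a shift of all genes together could be hidden. Small shifts between arrays remained in the tested values. Medians were 4.91 and 4.93 on irradiated and 4.94 and 4.86 on non-irradiated CD169-DTR arrays. They were 5.03 and 4.95 on irradiated and 4.87 and 4.88 on non-irradiated WT arrays. No further normalization was applied.

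Of 40161 probe sets, 30294 carried 1 symbol and were tested, 2145 carried several and 7722 none. Through Entrez IDs, 22546 matched the RefSeq table of GRCm38.p6, which updated 827 symbols. One model of the means of the 4 groups was fitted with limma 3.58.1 (lmFit and eBayes, R 4.3.3), two-sided. The fit had 4 residual degrees of freedom, to which the prior added 2.59, and the residual SD had a median of 0.182. P-values were adjusted by Benjamini-Hochberg over the 30294 probe sets in each of 7 comparisons, and a probe set passed below 0.05. The number of arrays limits the precision. The script was tested on simulated data.

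The members and the 13 gene lists were chosen with earlier results of these data known. Named are the 10 members, Siglec1, Cdkn1a, Kit and Slamf1, up to 3 genes per list and comparison with the smallest unadjusted p, and the 2 genes most correlated with each member. Other genes were named after their values were seen (Mdm2, Gp9 and Mpo). Slamf1, a gate gene, read 11.69 and 10.98 in irradiated and 11.75 and 10.66 in non-irradiated CD169-DTR cells, and 12.38 and 11.63 in irradiated and 10.99 and 11.56 in non-irradiated WT cells. The alternatives were an intensity trend with robust hyperparameters, cyclic loess, a filter at the 40th percentile, only the groups compared, the replicate number as a block and each array left out. Leaving out both arrays that stood apart was chosen after seeing the data.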

Additional observations from a re-analysis of the deposited data

How the results depend on the processing

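No member passed under any setting tried, and the lowest adjusted p was 0.166, for Meis1 after 2 Gy in CD169-DTR without CD169-DTR 2 Gy replicate 1. Of the 950 alternative values of the members, 50 changed sign, none of them where the unadjusted p of the reported value was under 0.05. No paired fit was used for the reported values, because replicate deviations of the 6 pairs of groups correlated at r = -0.09 to 0.16 and only 1 exceeded 0.1. With the replicate number as a block, 0 members passed in all 7 comparisons, and the block left 1 probe set passed after 2 Gy in WT.

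The number of probe sets that passed moved as follows. After 2 Gy in CD169-DTR it was 0 as reported (2050 at an unadjusted p under 0.05), 2 with an intensity trend, 2 with cyclic loess, 1 with the filter on dim probe sets, 1 with only the groups compared, 4 without both arrays that stood apart, and 0 to 5 with each array left out. After 2 Gy in WT it was 3 as reported, 1 with cyclic loess, 1 with the replicate block, 0 with only the groups compared (limma), and 0 to 16 with each array left out. Averaged over genotypes it was 3 as reported, 1 with an intensity trend and 1 to 12 with each array left out. Between genotypes it was 0 as reported, 2 in irradiated cells without both arrays that stood apart, 1 in non-irradiated cells with an intensity trend, and 0 to 11 (irradiated), 0 to 6 (non-irradiated) and 0 to 4 (both doses) with each array left out. In the interaction it was 0 as reported, 1 without both arrays that stood apart, and 0 to 7 with each array left out. Why these counts moved was not tested, but a left-out array leaves its partner assumed to vary like the others.

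With cyclic loess the Gfi1 difference changed sign after 2 Gy in CD169-DTR (-0.025), in WT (-0.0046) and averaged (-0.015), and that of Gata2 between genotypes averaged over doses (-0.034). Without both arrays that stood apart, signs changed after 2 Gy for Gfi1b (0.06) and Runx1 (-0.12) in CD169-DTR, for Mecom in WT (0.04) and for Gfi1b averaged (0.13). They also changed between irradiated genotypes for Gfi1 (-0.02), Erg (-0.17), Tal1 (0.42) and Runx1 (-0.13), averaged over doses for Gata2 (-0.0525), and in the interaction for Meis1 (0.035), Erg (-0.06) and Tal1 (0.22). With each array left out in turn, the following members changed sign. After 2 Gy in CD169-DTR, values ran for Gfi1 from -0.045 to 0.065, Gfi1b from -0.60 to 0.06 and Runx1 from -0.115 to 0.345. After 2 Gy in WT, values ran for Mecom from -0.24 to 0.10, Gfi1b from -0.13 to 0.20, Tal1 from -0.325 to 0.075 and Fli1 from -0.10 to 0.09. Averaged over genotypes, the irradiation difference ran for Gata2 from -0.06 to 0.06 and Gfi1b from -0.2825 to 0.0475. Between irradiated genotypes, values ran for Mecom from -0.205 to 0.015, Gfi1 from -0.065 to 0.095, Erg from -0.12 to 0.33 and Tal1 from -0.37 to 0.22. Between non-irradiated genotypes, values ran for Meis1 from -0.315 to 0.005 and Erg from -0.375 to 0.155. Averaged over doses, the genotype difference ran for Gata2 from -0.055 to 0.065, Erg from -0.135 to 0.13 and Tal1 from -0.0825 to 0.2125. In the interaction, values ran for Gfi1b from -0.635 to 0.025, Erg from -0.05 to 0.48 and Tal1 from -0.575 to 0.015. The cause was not tested. The alternative of another probe set per gene was not run, since each member had 1, and the fit of only the groups compared gives no averaged or interaction value. With 2 arrays a group, only large differences could pass over 30294 probe sets.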
